A study of Mus musculus with 11 samples.

Results

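The genes described here encode 10 enzymes that modify or crosslink collagen. They are the lysyl oxidases Lox, Loxl1, Loxl2, Loxl3 and Loxl4, the lysyl hydroxylases Plod1, Plod2 and Plod3, and the catalytic prolyl 4-hydroxylase subunits P4ha1 and P4ha2. They were taken by gene name from the deposited probe counts, where all 10 were found among 19962 gene targets, each with 1 probe. All 10 probes read close to the background of the assay. Over the 8 regions above 100000 counts P4ha1 averaged highest and Loxl3 lowest. Plod3 in all 6 Pdpn-adjacent regions lay below its lowest SMA-adjacent reading, but its difference did not pass the test over all probes, and neither did that of any other member.

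Collagen chains are modified in sequence. In the endoplasmic reticulum, prolyl 4-hydroxylases hydroxylate proline residues, which keeps the triple helix stable at body temperature, and lysyl hydroxylases hydroxylate lysine residues, which decides which crosslinks can later form and where sugars are attached. Outside the cell, lysyl oxidases, which are copper-dependent enzymes, oxidise lysine and hydroxylysine side chains, and the products join neighbouring collagen or elastin molecules covalently. In the mammary gland the stromal fibroblasts are the main makers of fibrillar collagen, and collagen crosslinking is known for its part in stiffening this stroma around tumours.

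Expression was read with digital spatial profiling on fixed frozen mammary glands of 3 naive periostin lineage tracing mice. Barcoded probes for the mouse whole transcriptome were hybridised to the sections, and the barcodes of chosen areas were freed with ultraviolet light, collected and sequenced. The Pdpn-adjacent group comprised 6 regions next to staining for podoplanin (Pdpn), a marker of lymphatic vessels, numbered 2, 3, 4, 7, 8 and 11. The SMA-adjacent group comprised 5 regions next to staining for smooth muscle actin (SMA), a marker of ducts and blood vessels, numbered 1, 5, 6, 9 and 10. All 11 areas were collected as cells positive for ZsGreen, so both groups were taken as cells of the periostin lineage. This holds whether or not they still transcribed Postn when the gland was taken. Markers of other tissues were read in these areas too, as given below. Strain, sex, age and the alleles of the reporter are not given in the sources used here. The mouse behind each region is also not given, and as 6 and 5 regions came from 3 mice, some regions share a mouse. The p-values below treat regions as independent and can therefore be too small.

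Depth limits what can be read of enzymes this weakly detected. Endogenous counts totalled 22757 to 2271664 in Pdpn-adjacent regions, with regions 2, 3 and 11 under 100000, and 760761 to 3086323 in SMA-adjacent regions. No value in the table is below 1, and in regions 2 and 11 a raw count of 1 was held by 90.0% and 77.6% of the endogenous probes. The 210 negative-control probes, which match no transcript of the mouse, set the background of each region, and a level over background is a probe's count divided by their geometric mean there. Markers of fibroblasts (6 genes) averaged 5.45 ± 4.16 times background in Pdpn-adjacent regions (SD, n = 6) and 13.7 ± 5.24 times in SMA-adjacent regions (SD, n = 5). Lymphatic endothelial markers (6 genes, Pdpn among them) stood at 1.23 ± 0.258 times background in Pdpn-adjacent and 1.48 ± 0.133 times in SMA-adjacent regions, so the defining transcripts of lymphatic vessels were near background in both groups. Smooth muscle markers (7 genes) stood at 2.66 ± 1.50 times background in Pdpn-adjacent and 12.3 ± 9.37 times in SMA-adjacent regions. Adipocyte markers (6 genes) averaged 19.2 ± 15.7 times background (SD) in Pdpn-adjacent and 35.1 ± 13.1 times in SMA-adjacent regions. Both means were above those of the fibroblast markers. The SMA and Pdpn stains chose the regions, so Acta2 and Pdpn are no finding between them. Postn stood at 1.90 ± 1.23 times background in Pdpn-adjacent regions (SD, n = 6) and 2.82 ± 1.39 times in SMA-adjacent regions (SD, n = 5).

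Upstream sequence is shown for P4ha1 and P4ha2, because prolyl 4-hydroxylase genes are textbook targets of the hypoxia-inducible factors and genes induced by hypoxia were read beside them, and for Plod3, whose values differed most between the groups. The sequences are those of RefSeq on GRCm38.p6, which covered 5 of the 10 members, read 5′ to 3′ on the strand of the gene and ending where the annotated gene begins. They lie at chr10:59323046-59323196 (plus strand, 151 bases), chr11:54100674-54100923 (plus strand, 250 bases) and chr5:136986769-136987018 (plus strand, 250 bases). Capitals mark the core of the hypoxia response element, searched as ACGTG or GCGTG on either strand, so that CACGT and CACGC count as matches on the opposite strand. The marked matches do not overlap each other.
P4ha1: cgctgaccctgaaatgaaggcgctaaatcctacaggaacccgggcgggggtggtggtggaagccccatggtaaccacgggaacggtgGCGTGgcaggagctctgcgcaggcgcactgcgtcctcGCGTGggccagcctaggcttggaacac
P4ha2: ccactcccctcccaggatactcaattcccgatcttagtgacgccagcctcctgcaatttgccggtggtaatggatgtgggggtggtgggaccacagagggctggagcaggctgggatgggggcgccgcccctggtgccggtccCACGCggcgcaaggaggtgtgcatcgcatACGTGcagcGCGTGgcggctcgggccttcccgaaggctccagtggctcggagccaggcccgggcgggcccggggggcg
Plod3: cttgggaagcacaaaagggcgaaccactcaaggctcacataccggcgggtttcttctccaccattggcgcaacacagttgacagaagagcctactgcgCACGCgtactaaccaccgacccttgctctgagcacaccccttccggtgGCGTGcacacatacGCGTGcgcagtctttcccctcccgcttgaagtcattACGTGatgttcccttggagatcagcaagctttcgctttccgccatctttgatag
The core was found 2 times for P4ha1, 3 times for P4ha2 and 4 times for Plod3, and 1 time each upstream of Plod1 and Loxl4. Among 32851 promoters, 38.6% held a match in a window of 250 bases. In the first 151 bases of that window, the end farther from the listed start, 23.7% held a match. A match is therefore common and is given as a description of these letters only.

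Over all regions, 78 of the 110 readings of a member in a region were above the negative-probe level. The same share over all endogenous probes was not computed, so this count has no background rate. In Pdpn-adjacent regions 2 and 11, 9 and 10 members stood at a raw count of 1. Such a count always lies under the negative-probe level there, so 1 and 0 members were above it. The floor of a region was set at the mean plus 2 SD of its negative probes on the log2 scale, and 7 of the 110 readings exceeded it. These were P4ha1 in SMA-adjacent regions 6, 9 and 10, Plod1 in SMA-adjacent regions 1, 9 and 10, and Lox in Pdpn-adjacent region 2, where Lox rested on a raw count of 2. The same floor was exceeded by between 2.77% and 22.4% of all endogenous probes, depending on the region (12.2%, 12.5%, 19.1% and 19.2% in SMA-adjacent regions 1, 6, 9 and 10, and 10.0% in Pdpn-adjacent region 2), so these readings did not stand out from other probes. With a floor at 3 SD only that Lox reading was left. In SMA-adjacent regions the mean level of all 10 members was above 1 times background, as was that of 74.5% of all endogenous probes. A mean above 2 times background was reached there by 2 of the 10, P4ha1 and Plod1, and by 18.2% of all probes.

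**Figure D1:**
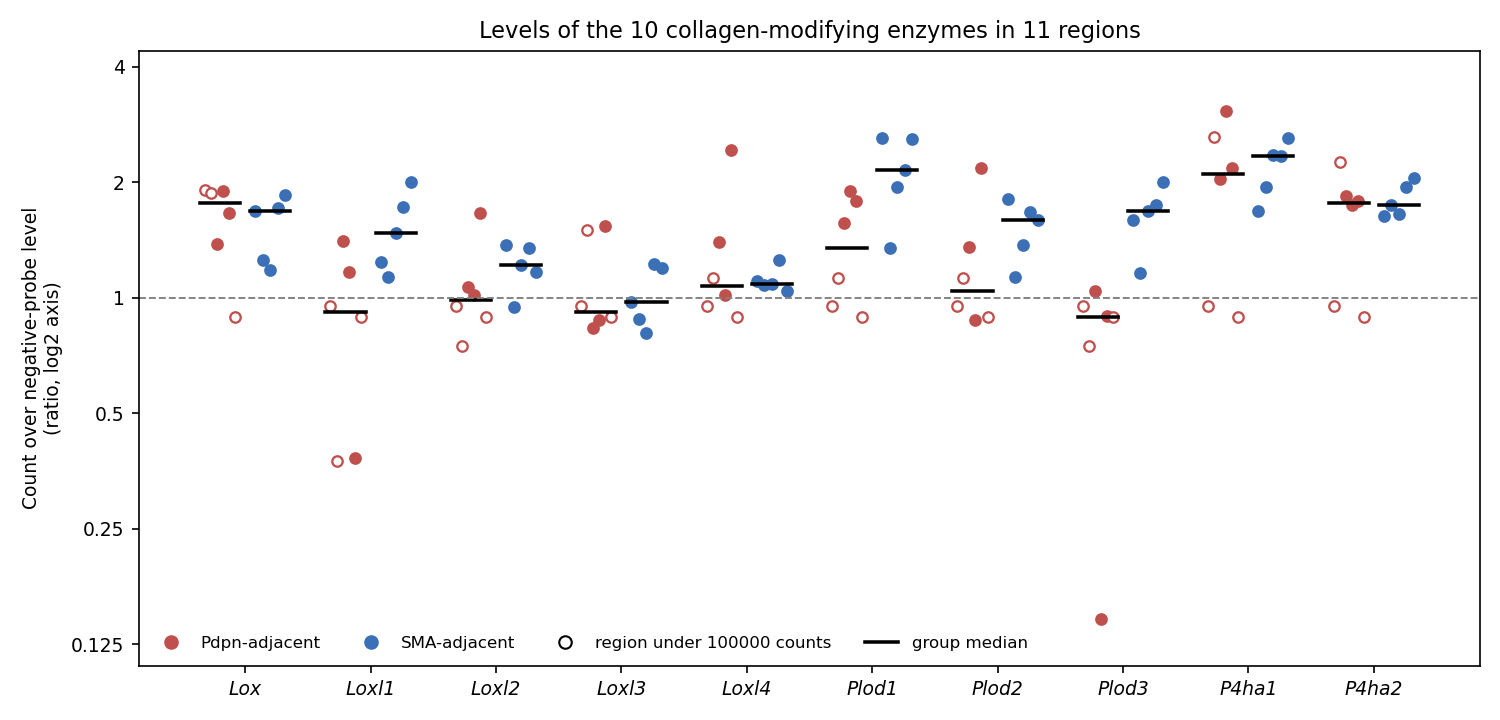
Count of each enzyme's probe divided by the geometric mean of the negative probes of its region (log2 axis), in 6 Pdpn-adjacent (left of each pair) and 5 SMA-adjacent regions. Each point is a region, open points are regions under 100000 counts, black bars are group medians and the dashed line is the background. Readings run from 0.146 (Plod3) to 3.06 (P4ha1), both in Pdpn-adjacent region 7, and the Plod3 points do not overlap between the groups.

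In the 8 regions above 100000 counts (Pdpn-adjacent 4, 7 and 8, and all 5 SMA-adjacent), the order of mean levels over background was P4ha1 (2.27 ± 0.425), Plod1 (1.99 ± 0.449), P4ha2 (1.80 ± 0.143), Lox (1.58 ± 0.270), Plod2 (1.50 ± 0.406), Loxl1 (1.32 ± 0.479), Loxl4 (1.30 ± 0.472), Plod3 (1.28 ± 0.598), Loxl2 (1.22 ± 0.231) and Loxl3 (1.04 ± 0.255; SD, n = 8 each). Neighbours in this order mostly could not be separated. Of the 9 neighbouring pairs, only Loxl2 over Loxl3 had a mean difference within regions (0.183) larger than its SD (0.153), with Loxl2 higher in 7 of 8 regions. Each gene has a single probe, and a probe's yield depends on its sequence, so this order is one of probe readings and not of transcripts per cell. The order differed between the groups: in the deeper Pdpn-adjacent regions P4ha1 was again first but Plod3 came last (0.694 ± 0.481; SD, n = 3), while in SMA-adjacent regions Plod3 ranked 4 of 10 and Loxl3 last. That last place of Plod3 leaned on region 7, where a raw count of 1 gave 0.146. Regions 4 and 8 gave 1.04 and 0.894, and Loxl1, next above Plod3, averaged 0.985 ± 0.535 (SD, n = 3). By class, the prolyl 4-hydroxylase subunits averaged 2.11 ± 0.257 times background in the deeper Pdpn-adjacent regions (SD, n = 3) and 2.00 ± 0.261 in SMA-adjacent regions (SD, n = 5). In the same regions the lysyl hydroxylases averaged 1.30 ± 0.324 (Pdpn-adjacent) and 1.76 ± 0.342 (SMA-adjacent). The lysyl oxidases averaged 1.31 ± 0.190 (Pdpn-adjacent) and 1.28 ± 0.176 (SMA-adjacent). The difference between the groups was smaller than the SD of either group for the prolyl 4-hydroxylases and the lysyl oxidases, and larger than it for the lysyl hydroxylases. Lysyl hydroxylase averages still overlapped, at 0.970 to 1.62 in the deeper Pdpn-adjacent regions and 1.21 to 2.06 in SMA-adjacent regions. The difference of this class lay mostly in Plod3, at 0.694 (deeper Pdpn-adjacent) against 1.64 (SMA-adjacent). Plod1 had 1.75 against 2.13 and Plod2 1.47 against 1.52.

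**Figure D2:**
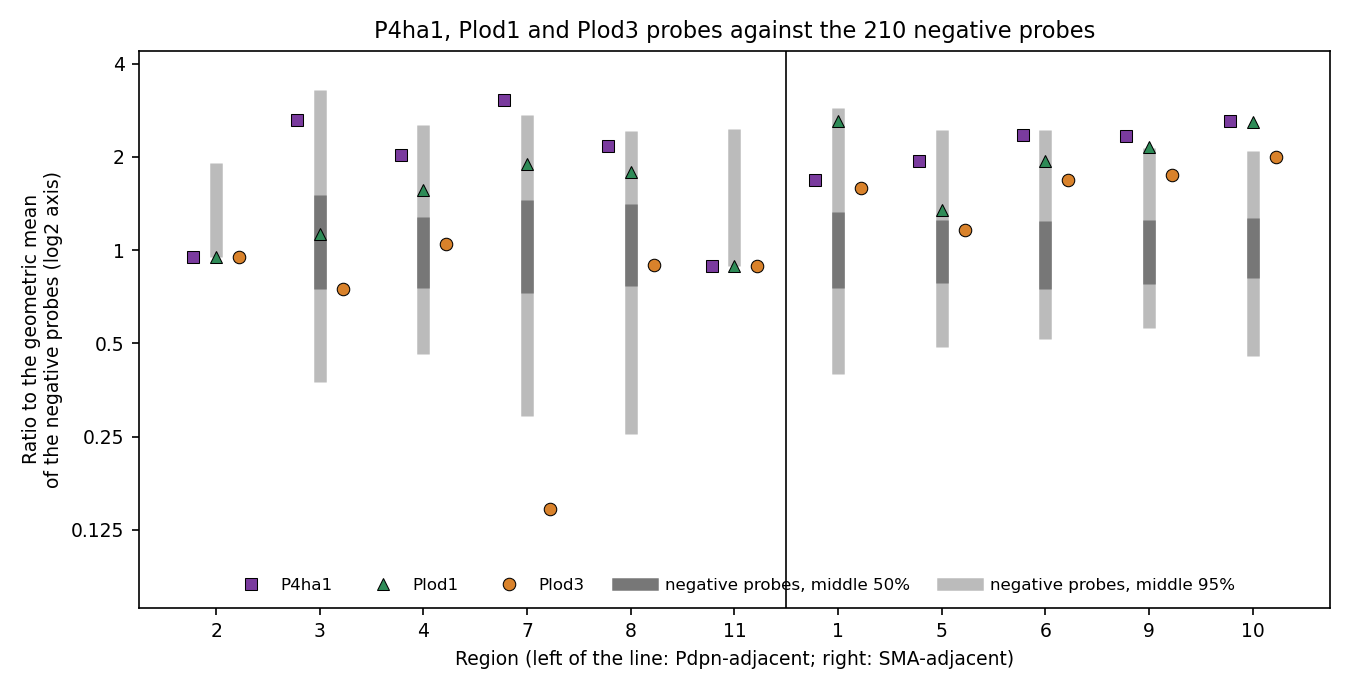
Ratio of the P4ha1, Plod1 and Plod3 probes to the geometric mean of the negative probes (log2 axis) in each region, Pdpn-adjacent left of the line and SMA-adjacent right of it. Grey bars span the middle 50% and 95% of the 210 negative probes. P4ha1 lies above the 95% bar in Pdpn-adjacent region 7 (3.06) and SMA-adjacent regions 9 and 10 (2.34 and 2.61). Plod1 lies above the bar in SMA-adjacent regions 9 and 10 (2.15 and 2.59). Plod3 lies below the bar in Pdpn-adjacent region 7 (0.146) and within it elsewhere.

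P4ha1, the catalytic subunit of the most widely expressed prolyl 4-hydroxylase, read 0.952, 2.63, 2.03, 3.06, 2.17 and 0.889 times background in Pdpn-adjacent regions 2, 3, 4, 7, 8 and 11. In SMA-adjacent regions 1, 5, 6, 9 and 10 it read 1.68, 1.94, 2.35, 2.34 and 2.61 times background. The groups overlapped: Pdpn-adjacent regions 7 and 3 held the highest readings of all 11, and regions 2 and 11, each at a raw count of 1, the lowest. Scaled to a common library size (CPM), P4ha1 averaged 63.3 ± 25.7 CPM in Pdpn-adjacent regions (SD, n = 6) and 67.5 ± 10.5 CPM in SMA-adjacent regions (SD, n = 5). The log2 fold change, Pdpn-adjacent over SMA-adjacent, was 0.03 ± 0.18 SE (95% interval -0.35 to 0.41, edgeR adjusted p = 1.00). Its sign is opposite to that of the unweighted means, whose difference in log2 CPM was -0.18, so no direction is given for P4ha1. The P4ha1 probe spans chromosome 10, 59342778 to 59342813 (GRCm38.p6), inside the gene. Exon and UTR positions were not used here for any member.

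The 2 regions with the highest P4ha1 readings also had the highest levels over background of fast skeletal muscle markers. The P4ha1 reading of 2.63 in Pdpn-adjacent region 3 rested on a raw count of 7. It was close to the 2.61 of SMA-adjacent region 10, which rested on 103 counts. The 7 fast skeletal muscle markers averaged 44.8 times background in Pdpn-adjacent region 7 and 102.9 times in Pdpn-adjacent region 3. Elsewhere they lay between 1.15 and 5.98 times in the other Pdpn-adjacent regions and between 1.11 and 12.7 times in SMA-adjacent regions. Their summed raw counts were 2157 in region 7 and 1920 in region 3. These sums were larger in SMA-adjacent regions 5, 9 and 10 (9880, 2588 and 2610) and smaller in every other region. None of the 7 markers was called (5 of 7 were higher at an unadjusted p under 0.05, which 6.03% of all probes reached in either direction). Without regions 3 and 7 the P4ha1 difference was -0.13 ± 0.19 SE on the log2 scale (edgeR adjusted p = 1.00). As these regions held the highest P4ha1 readings, leaving them out lowers the difference whatever its source, and cannot decide that source. The part of muscle transcripts in the P4ha1 readings was not tested. Across the 8 deeper regions, the 5 probes whose log2 CPM followed P4ha1 most closely, among 3498 probes with a median of at least 2 times background, were Vstm2b (Pearson's r = 0.99), Adora1, an adenosine receptor (0.98), Slc2a4, the insulin-responsive glucose transporter of muscle and fat (0.97), Eif4e, the cap-binding translation factor (0.97), and Aldoa, the aldolase of glycolysis (0.96). These correlations describe 8 regions that share their library depth with every probe, and the highest of 3498 values is high by selection.

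P4ha2, a second catalytic subunit, was the steadiest member among the deeper regions. It read 0.952, 2.25, 1.84, 1.75, 1.79 and 0.889 times background in Pdpn-adjacent regions 2, 3, 4, 7, 8 and 11, and 1.64, 1.75, 1.65, 1.95 and 2.05 times in SMA-adjacent regions 1, 5, 6, 9 and 10. Leaving aside regions 2 and 11, where its raw count was 1, all readings lay between 1.64 and 2.25 and the groups overlapped. The log2 fold change was 0.02 ± 0.16 SE (95% interval -0.30 to 0.34, edgeR adjusted p = 1.00). The means ran the other way, at 51.5 ± 15.0 CPM in Pdpn-adjacent regions (SD, n = 6) and 55.8 ± 4.90 CPM in SMA-adjacent regions (SD, n = 5), a log2 CPM difference of -0.16. Its probe lies at chromosome 11, 54110996 to 54111035 on GRCm38.p6.

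Plod3, a lysyl hydroxylase that also attaches glucose to hydroxylysine, differed most between the groups. Raw counts were 1, 2, 80, 1, 7 and 1 in Pdpn-adjacent regions 2, 3, 4, 7, 8 and 11, against 36, 129, 108, 151 and 79 in SMA-adjacent regions 1, 5, 6, 9 and 10. Divided by background, these came to 0.952, 0.750, 1.04, 0.146, 0.894 and 0.889 in Pdpn-adjacent regions and 1.59, 1.16, 1.68, 1.75 and 2.00 in SMA-adjacent regions. Plod3 was thus under the negative-probe level in 5 of 6 Pdpn-adjacent regions and above it in 5 of 5 SMA-adjacent regions, with no overlap. In library-scaled units it averaged 26.5 ± 12.1 CPM in Pdpn-adjacent regions (SD, n = 6) and 50.3 ± 7.10 CPM in SMA-adjacent regions (SD, n = 5). The fitted log2 fold change was -0.77 ± 0.21 SE (95% interval -1.20 to -0.33, edgeR unadjusted p = 0.000879, adjusted p = 0.240). An exact two-sided permutation test of log2 CPM over all 462 ways to choose the groups gave p = 0.00866, and 0.609 after adjustment over all probes. The smallest p this design allows is 0.00216.

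The separation of Plod3 rests partly on regions that hold little. In regions 2 and 11 a raw count of 1, under which no value falls, already equals 37.5 and 34.3 CPM, close to the lowest SMA-adjacent value of 39.6 CPM in region 5. Among the 8 deeper regions the Pdpn-adjacent values were 34.4, 4.66 and 23.3 CPM in regions 4, 7 and 8, against 39.6 to 58.4 CPM in SMA-adjacent regions. That split of 3 against 5 regions gave an exact permutation p of 0.0179, the smallest that its 56 ways allow. As no Pdpn-adjacent region overlapped the SMA-adjacent group, this p largely follows from that separation and adds nothing to it. The log2 fold change kept its sign in all 20 alternatives, between -1.78 (without regions 4 and 8) and -0.62 (without regions 3 and 7), and the adjusted p lay between 0.0528 (without SMA-adjacent region 5) and 0.736 (without regions 2, 3 and 11) in the 19 alternatives that gave one. It was -1.43 without Pdpn-adjacent region 4, which supplied most of the group's counts. Its probe spans chromosome 5, 136988904 to 136988941 (GRCm38.p6). Some regions share a mouse, which these p-values do not take into account.

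Most smooth muscle markers and all 6 fibroblast markers had negative log2 fold changes, although 0 of either list was called. Of the 7 smooth muscle markers, 5 (Myh11, Mylk, Myl9, Tagln and Acta2) separated the groups without overlap in the same direction as Plod3, which 0.391% of all probes did. The SMA stain chose the regions, so the separation of these smooth muscle genes is no finding between the groups. Des, the intermediate filament desmin, averaged 147.6 ± 165.1 CPM in Pdpn-adjacent regions and 94.6 ± 28.8 CPM in SMA-adjacent regions (0.60 ± 0.38 SE on the log2 scale, edgeR adjusted p = 0.928). The smooth muscle list ranged from 1.22 to 4.87 times background in Pdpn-adjacent regions and from 5.03 to 27.8 times in SMA-adjacent regions. Fibroblast markers ranged from 0.952 to 10.9 times background in Pdpn-adjacent regions and from 6.74 to 20.8 times in SMA-adjacent regions. In SMA-adjacent regions 1, 5, 6, 9 and 10 the smooth muscle list stood at 8.29, 5.03, 6.23, 27.8 and 14.2 times background. Plod3 read 1.59, 1.16, 1.68, 1.75 and 2.00 times background in the same regions. The part of either cell type in the Plod3 difference was not tested. In pooled segments like these, fewer cells of a type and less RNA per cell cannot be told apart.

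Plod1, the lysyl hydroxylase of helical lysines, averaged second highest over the 8 deeper regions and in SMA-adjacent regions, and ranked 3 of 10 in the deeper Pdpn-adjacent regions. It read 0.952, 1.13, 1.56, 1.89, 1.79 and 0.889 times background in Pdpn-adjacent regions 2, 3, 4, 7, 8 and 11, against 2.61, 1.35, 1.94, 2.15 and 2.59 times in SMA-adjacent regions 1, 5, 6, 9 and 10. SMA-adjacent regions 1, 6, 9 and 10 were above every Pdpn-adjacent region, whereas SMA-adjacent region 5 fell among the Pdpn-adjacent readings. In CPM, Plod1 averaged 44.6 ± 10.2 in Pdpn-adjacent regions (SD, n = 6) and 65.1 ± 12.6 in SMA-adjacent regions (SD, n = 5). The log2 fold change was -0.33 ± 0.19 SE (95% interval -0.71 to 0.05, edgeR adjusted p = 0.904). The exact permutation test gave p = 0.0216, or 0.614 after adjustment over all probes, and p = 0.179 without regions 2, 3 and 11. The probe lies at chromosome 4, 147927081 to 147927118 on GRCm38.p6.

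Plod2, the hydroxylase of telopeptide lysines and known from fibrosis, read 0.952, 1.13, 1.36, 0.873, 2.17 and 0.889 times background in Pdpn-adjacent regions 2, 3, 4, 7, 8 and 11. It read 1.81, 1.13, 1.37, 1.67 and 1.60 times in SMA-adjacent regions 1, 5, 6, 9 and 10. Its highest reading was in Pdpn-adjacent region 8, where it stood on 17 counts, and 4 of 6 Pdpn-adjacent regions lay below every SMA-adjacent region. The log2 fold change was -0.06 ± 0.16 SE (95% interval -0.39 to 0.28, edgeR adjusted p = 1.00), and -0.54 ± 0.35 SE without regions 4 and 8 (edgeR adjusted p = 0.997). The 3 lysyl hydroxylases thus shared a negative sign, with sizes of -0.77, -0.33 and -0.06, of which none passed. The Plod2 probe lies at chromosome 9, 92581326 to 92581365 on GRCm38.p6.

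The lysyl oxidases differed between the groups in both directions, and none of the 5 passed the test. Lox, the founding member of the family, was above background in 10 of 11 regions, at 1.90, 1.88, 1.38, 1.89, 1.66 and 0.889 times background in Pdpn-adjacent regions 2, 3, 4, 7, 8 and 11 and 1.68, 1.25, 1.18, 1.71 and 1.85 times in SMA-adjacent regions 1, 5, 6, 9 and 10. The groups overlapped, with a log2 fold change of 0.05 ± 0.16 SE (95% interval -0.28 to 0.39, edgeR adjusted p = 1.00). Loxl2, which acts on basement membrane collagen, ranged from 0.750 to 1.66 times background in Pdpn-adjacent regions (median 0.985) and from 0.945 to 1.37 in SMA-adjacent regions (median 1.21). Its log2 fold change was -0.04 ± 0.15 SE (95% interval -0.35 to 0.26, edgeR adjusted p = 1.00). Loxl3 was above background in 4 of 11 regions and ranged from 0.834 to 1.53 times in Pdpn-adjacent regions (median 0.921) and from 0.809 to 1.23 times in SMA-adjacent regions (median 0.973). Its log2 fold change was -0.06 ± 0.17 SE (95% interval -0.41 to 0.28, edgeR adjusted p = 1.00), whereas its means were 36.1 ± 8.20 CPM in Pdpn-adjacent and 31.3 ± 4.39 CPM in SMA-adjacent regions, a log2 CPM difference of 0.18 in the opposite direction.

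Loxl1, which crosslinks elastin, read lower in Pdpn-adjacent regions, at 0.952, 0.375, 1.41, 1.16, 0.383 and 0.889 times background in regions 2, 3, 4, 7, 8 and 11, against 1.24, 1.13, 1.48, 1.73 and 2.00 times in SMA-adjacent regions 1, 5, 6, 9 and 10. Pdpn-adjacent regions 3 and 8 were the lowest, on raw counts of 1 and 3, and regions 4 and 7 fell among the SMA-adjacent readings. The fitted log2 fold change was -0.31 ± 0.22 SE (95% interval -0.76 to 0.14, edgeR adjusted p = 0.945). It was -1.11 ± 0.39 SE without Pdpn-adjacent region 4 (edgeR adjusted p = 0.582) and -0.13 ± 0.19 SE without region 8 (edgeR adjusted p = 1.00). The exact permutation p was 0.0758 on log2 CPM and 0.0325 on the log2 ratio to the negative probes, without adjustment over probes. Because some regions come from the same mouse, these values can be too small.

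Loxl4 had the largest positive difference of the members. It read 0.952, 1.13, 1.40, 1.02, 2.43 and 0.889 times background in Pdpn-adjacent regions 2, 3, 4, 7, 8 and 11, against 1.11, 1.08, 1.09, 1.25 and 1.04 times in SMA-adjacent regions 1, 5, 6, 9 and 10. Regions 8 and 4 alone lay above every SMA-adjacent region, and the other 4 Pdpn-adjacent regions lay within or below their range. The log2 fold change was 0.40 ± 0.15 SE (95% interval 0.10 to 0.71, edgeR unadjusted p = 0.0115, adjusted p = 0.676), with an exact permutation p of 0.212. Regions 4 and 8 also held the highest level of the 8 luminal epithelial markers, at 2.97 and 3.29 times background, against 1.00 to 1.69 times in the other Pdpn-adjacent regions and 1.41 to 1.90 times in SMA-adjacent regions. Of these 8 markers, 7 were higher at an unadjusted p under 0.05 and 0 were called. That p was reached in either direction by 6.03% of all probes. Without regions 4 and 8 the Loxl4 difference was -0.04 ± 0.31 SE on the log2 scale (edgeR adjusted p = 1.00). As these regions held the highest Loxl4 readings, leaving them out lowers the difference whatever its source, and cannot decide that source. The part of epithelial transcripts in the Loxl4 readings was not tested.

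**Figure D3:**
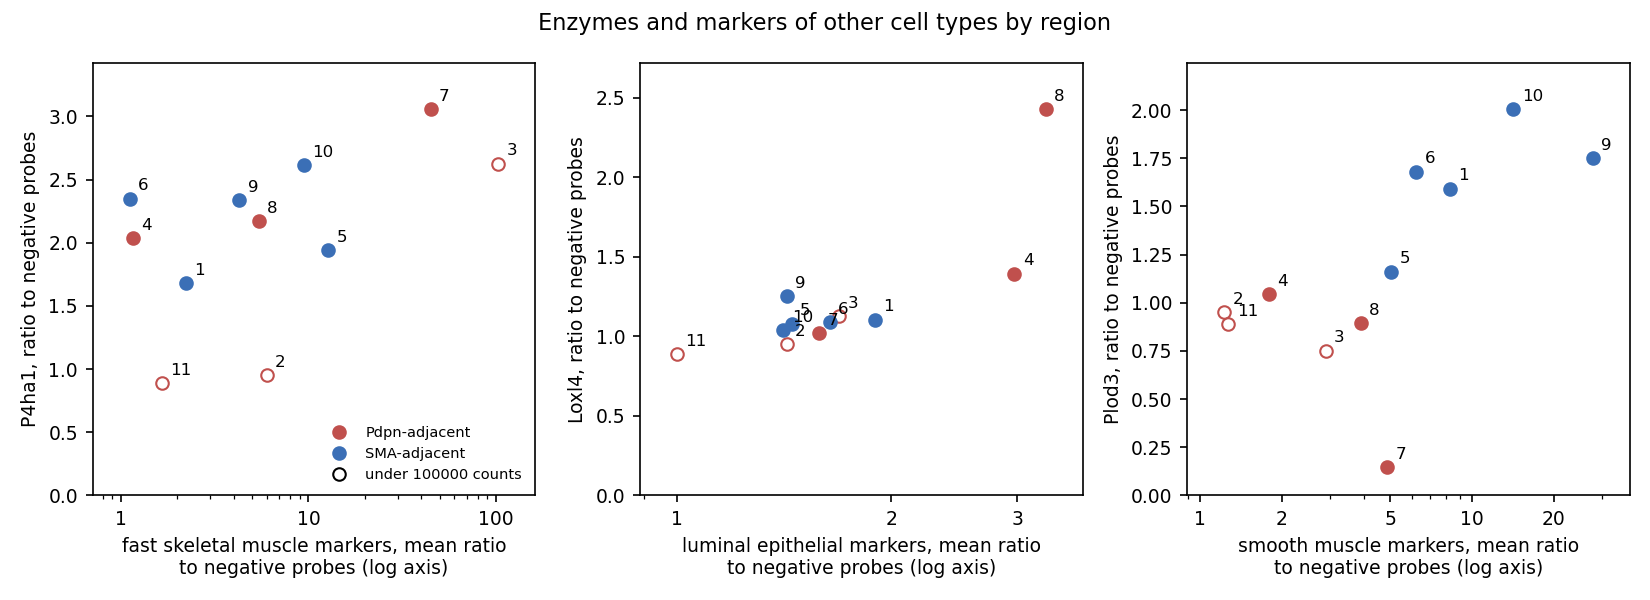
Level over background of P4ha1, Loxl4 and Plod3 in each region against the mean level of fast skeletal muscle, luminal epithelial and smooth muscle markers (horizontal log axes). Points are regions with their numbers, open where the total is under 100000 counts. The highest P4ha1 readings (3.06 and 2.63) fall in regions 7 and 3, the highest Loxl4 readings (2.43 and 1.40) in regions 8 and 4, and every Plod3 reading of the SMA-adjacent group lies up and to the right of the Pdpn-adjacent ones.

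On GRCm38.p6 the probes of the lysyl oxidases other than Lox span chromosome 9, 58312700 to 58312734 (Loxl1), chromosome 14, 69692380 to 69692414 (Loxl2), chromosome 6, 83049809 to 83049844 (Loxl3) and chromosome 19, 42607681 to 42607720 (Loxl4), each inside its gene.

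Tested over all 19935 probes kept by the filter on low counts, which all 10 members passed, edgeR called 0 of the 10 members at an adjusted p under 0.05. The background rate was 0.0100% (2 probes, both higher and neither a member). At an unadjusted p under 0.05 edgeR gave 2 members, Plod3 (lower) and Loxl4 (higher), against 6.03% of all probes. The exact permutation test gave 2 members under 0.05, Plod3 and Plod1 (both lower), against 7.91% of all probes, and 0 probes after adjustment. In CPM, 1 of 10 members (Plod3) lay below the whole SMA-adjacent group in all Pdpn-adjacent regions, against 0.391% of all probes, and 0 were higher in all of them, against 0.446%. The members' log2 fold changes had a median of -0.05 with 6 negative and 4 positive, and the median of all probes tested was 0.01. Limma-voom also called 0 members, and DESeq2 gave an adjusted p for P4ha1 alone (0.994), so it could call none of the other 9. All p-values of this comparison carry the limit that some regions share a mouse.

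**Figure D4:**
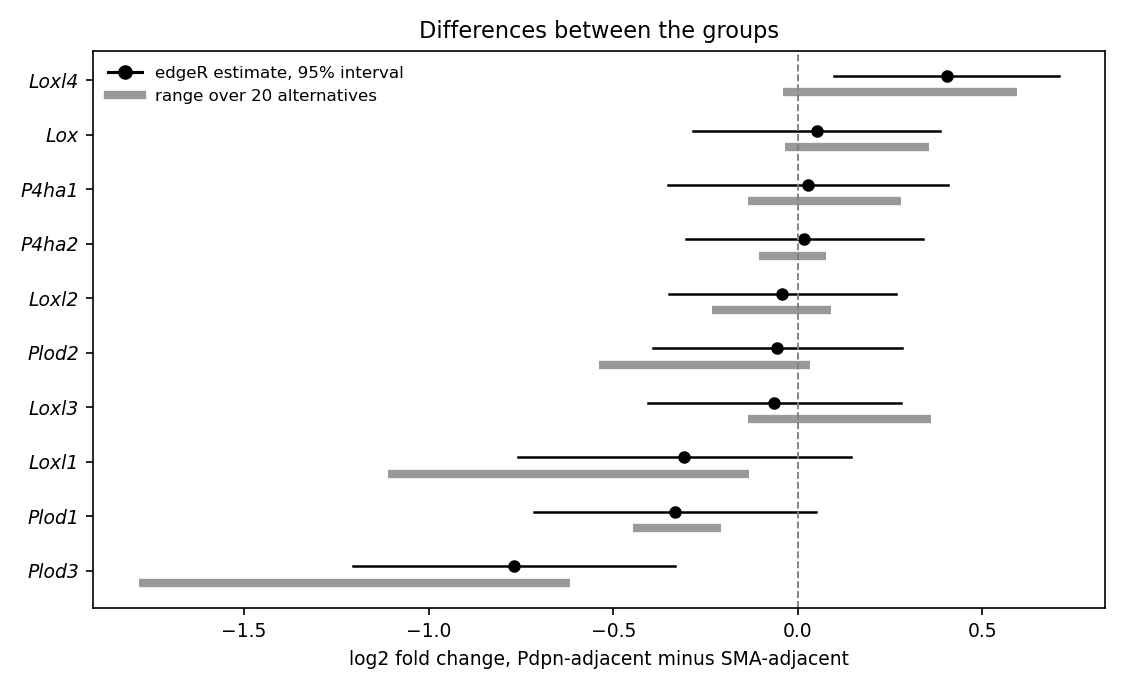
Log2 fold change of each enzyme, Pdpn-adjacent minus SMA-adjacent, with the edgeR estimate and its 95% interval (black) and the range over 20 alternatives (grey). The intervals of Plod3 (-1.20 to -0.33) and Loxl4 (0.10 to 0.71) leave out 0 before adjustment over all probes, and the grey range of Loxl4 crosses 0.

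Correlations between the members ran in both directions. Over the 8 deeper regions the 45 pairs of members had Pearson correlations of log2 CPM from -0.84 (Plod2 and P4ha1) to 0.80 (Loxl2 and Plod2), with a median of 0.10. Plod2 and Plod3 had 0.71 and P4ha1 and P4ha2 had 0.54. These are descriptions over 8 regions with shared library depth, and counting error is large for members at 1 to 21 counts in Pdpn-adjacent regions 7 and 8.

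Partner enzymes of collagen maturation did not pass the test either. Of 22 such genes, all measured, edgeR called 0 in either direction, 15 had a negative and 7 a positive log2 fold change (48.8% of all probes tested were negative), and their median was -0.14. That median was -0.076 without Pdpn-adjacent region 4, -0.091 without SMA-adjacent region 10 and -0.024 with limma-voom. Tgm2, a transglutaminase that crosslinks matrix proteins, averaged 58.0 ± 20.8 CPM in Pdpn-adjacent regions (SD, n = 6) and 112.9 ± 38.7 CPM in SMA-adjacent regions (SD, n = 5; -0.73 ± 0.26 SE on the log2 scale, edgeR adjusted p = 0.647). P3h3, a prolyl 3-hydroxylase family member, averaged 44.0 ± 15.4 CPM in Pdpn-adjacent and 30.0 ± 2.68 CPM in SMA-adjacent regions (0.32 ± 0.15 SE, edgeR adjusted p = 0.919). Pcolce2, an enhancer of procollagen C-proteinase, averaged 42.0 ± 16.4 CPM in Pdpn-adjacent and 58.5 ± 11.6 CPM in SMA-adjacent regions (-0.34 ± 0.20 SE, edgeR adjusted p = 0.925).

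The substrates of the enzymes mostly read lower in Pdpn-adjacent regions, without a call. Of 18 collagens, elastic fibre proteins and scaffolds, 16 had a negative log2 fold change, 7 of them at an unadjusted p under 0.05, and 0 were called. Of all probes tested, 48.8% were negative, and 6.03% had an unadjusted edgeR p under 0.05 in either direction. The median was -0.43. Over the alternatives this median ran from -0.68 (without regions 4 and 8) to -0.32 (without regions 2, 3 and 11). Elastin (Eln), a substrate of the lysyl oxidases, averaged 79.6 ± 49.5 CPM in Pdpn-adjacent regions (SD, n = 6) and 208.5 ± 88.9 CPM in SMA-adjacent regions (SD, n = 5), a difference of -1.30 ± 0.38 SE on the log2 scale (edgeR adjusted p = 0.403). Fibronectin (Fn1) had -0.94 ± 0.28 SE (edgeR adjusted p = 0.398). Fbln5, a fibulin that guides elastic fibre assembly, had -0.75 ± 0.23 SE (edgeR adjusted p = 0.452). Postn, whose protein binds collagen and assists its crosslinking, had -0.16 ± 0.27 SE (edgeR adjusted p = 1.00). The 6 markers of fibroblasts, which make these proteins, had a median log2 fold change of -0.86 with 0 called, and their part in these values was not tested. Col1a1 and Col3a1 are in both lists, so the medians of the lists are not independent.

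Genes induced by hypoxia were read because P4ha1, P4ha2, Plod2 and Lox are known hypoxia-inducible genes. Of 13 other such genes, 12 passed the filter, since Car9 did not. Of those 12, edgeR called 0, 8 had a negative and 4 a positive log2 fold change, and the median was -0.06. That median was 0.04 without regions 4 and 8, 0.03 with limma-voom and 0.0056 without Pdpn-adjacent region 8. Ndrg1, a stress-response gene, differed by -0.44 ± 0.26 SE on the log2 scale (edgeR adjusted p = 0.927), and Pdk1, the kinase that restrains pyruvate dehydrogenase, had -0.31 ± 0.28 SE (edgeR adjusted p = 0.985). Vegfa, the vascular growth factor, had 0.27 ± 0.24 SE (edgeR adjusted p = 0.987). The 4 members of this class had log2 fold changes of 0.03 (P4ha1), 0.02 (P4ha2), -0.06 (Plod2) and 0.05 (Lox).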

How the data were processed

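The deposited values are raw counts per probe and region, per the file headers and the values themselves, which are whole numbers with totals that differ between regions. The authors' steps from reads to counts, and why no value is below 1, are not given in the sources used here. There are 19965 endogenous probes and 210 negative-control probes, the latter left out of library sizes and tests. The 11 labelled areas of the 12 that the labels count were analysed. Positions of probes refer to GRCm38.p6 in the deposited annotation.

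Probes kept by filterByExpr (19935) were tested with the quasi-likelihood test of edgeR 4.0.16 in R 4.3.3, with TMM scaling, Benjamini-Hochberg adjustment over all probes and a threshold of 0.05. Standard errors and 95% intervals come from the weights of the fitted model and its moderated dispersion, and are not adjusted for the number of probes. CPM are counts scaled by the TMM-adjusted library size. Single values were compared by exact two-sided permutation of log2 CPM (prior count 2). Correlations and the order of levels used the 8 regions above 100000 counts. Alternatives left out each region or set of regions, changed the filter, the scaling or the tool (DESeq2 1.42.0, limma-voom of limma 3.58.1) or added the negative-probe level as a covariate. The fit was tested on simulated data. Exact Poisson intervals of single counts cover counting error only.

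The members, the gene lists and the regions left out were chosen with earlier results of these data known. Genes named outside the members are the 3 of smallest p in each list, the 5 probes most like the highest member, markers of cell types, and Acta2, Pdpn and Postn where they bear on a member.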

Additional observations from a re-analysis of the deposited data

Results flagged for a closer look

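The Plod3 reading in Pdpn-adjacent region 7 stood far from the other 5 readings of its group. It was 0.146 times background, and the next lowest was 0.750, in Pdpn-adjacent region 3. On the log2 scale this gap was 0.833 of the group's whole range. It rests on a raw count of 1 (exact Poisson 95% interval 0.0253 to 5.57 counts), at which 160 of the endogenous probes of that region (0.801%) stood. The value covers counting error only. Chance flags about 1 in 20 groups, and 20 groups of a member in a region type were examined. Without Pdpn-adjacent region 7 the log2 fold change of Plod3 was -0.63 ± 0.19 SE (edgeR adjusted p = 0.354).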

How the results depend on the processing

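No member was called in any of the 20 alternatives, nor was any gene of the 3 lists of partner, substrate and hypoxia genes. The number of probes called was 2 and moved to between 1 and 53 when regions were left out in turn (53 when SMA-adjacent region 5 was omitted, 13 when Pdpn-adjacent region 7 was), to 1 with negative-probe scaling or without regions 2, 3 and 11, to 17 with DESeq2, to 0 with limma-voom (3251 at an unadjusted p under 0.05), to 13 without regions 4 and 8, to 14 without regions 3 and 7 and to 44 with the negative-probe covariate. The cause was not tested. DESeq2 gave no adjusted p for 9 of the 10 members. Readings above the floor numbered 7, and 1 with a floor at 3 SD. Members with an exact permutation p under 0.05 numbered 2, with 3 on the log2 ratio to the negative probes (Loxl1 added) and 1 without regions 2, 3 and 11.

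Plod3, Plod1 and Loxl1 stayed negative throughout. Small differences changed sign. With regions left out in turn, log2 fold changes ran from -0.017 to 0.17 (Lox), -0.11 to 0.0039 (Loxl2), -0.14 to 0.22 (Loxl3), -0.14 to 0.016 (Plod2), -0.090 to 0.10 (P4ha1) and -0.10 to 0.077 (P4ha2). Without regions 3 and 7 they were -0.034 (Lox), 0.033 (Plod2), -0.13 (P4ha1) and -0.0095 (P4ha2). Without regions 4 and 8 they were 0.12 (Loxl3) and -0.040 (Loxl4). Limma-voom, whose median over all probes was 0.14, gave 0.089 (Loxl2) and 0.36 (Loxl3). DESeq2 gave 0.017 (Loxl3), negative-probe scaling -0.018 (P4ha2), and the covariate 0.0017 (Loxl2) and 0.022 (Plod2). The log2 CPM difference of P4ha1 was -0.18, and 0.10 without regions 2, 3 and 11. No paired analysis was possible because the groups share no region numbers and the labels tie no region to a mouse. Depth limits the Pdpn-adjacent group most, with 3 of its 6 regions under 100000 counts.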
